A study of Homo sapiens with 12 samples.

Results

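The thioredoxin and peroxiredoxin system was described in RCC4 cells through every probe set of 10 genes: TXNIP, TXN, TXN2, TXNRD1, PRDX1, PRDX2, PRDX3, PRDX4, PRDX6 and SOD2. The genes gave 22 of the 22215 probe sets tested. Of these, 18 carried a single gene symbol and belonged to 9 genes. The other 4 were annotated to both SOD2 and SOD2-OT1, an overlapping transcript; they were counted apart and are written SOD2/SOD2-OT1, since their signal could not be given to either gene alone. RCC4 is an established line from a clear cell renal carcinoma, without working VHL protein. The cells received siRNA against YAP (siYAP) or a non-targeting siRNA (siNT) for 2 days and then 1 µM erastin or the vehicle DMSO for 7 hours. The 4 groups were siYAP with erastin, siYAP with DMSO, siNT with erastin and siNT with DMSO, each on 3 Affymetrix arrays made from biological triplicates. All 12 arrays thus came from 1 line, and every group had been transfected.

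Thioredoxins are small proteins that reduce disulfides in other proteins through a pair of active-site cysteines. Thioredoxin reductases restore them with electrons from NADPH, and TXNIP binds reduced thioredoxin and blocks it. Peroxiredoxins break down hydrogen peroxide with a reactive cysteine, and most of them are recycled by thioredoxin. YAP is a transcriptional co-activator of the Hippo pathway. Erastin blocks the cystine importer system xc-, which limits the cysteine available for glutathione and brings on ferroptosis, a death driven by lipid peroxides.

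Promoter sequences are shown for TXNIP, whose group means spread most among the 9 genes with a single-symbol probe set, by their highest-mean probe set, and for TXNRD1, whose gene is a textbook target of the antioxidant regulator NRF2. They are RefSeq sequences of GRCh38.p14, written 5′ to 3′ on the gene's own strand. For TXNIP the 250 bases before one annotated start (chr1:145996580-145996829, minus strand) are given, with 2 copies of CACGAG in capitals. This pair of imperfect E-boxes is known as the carbohydrate response element bound by MLX with its partners. For TXNRD1 a stretch of 61 bases is given for each annotated start, at chr12:104215654-104215714 and chr12:104286904-104286964 on the plus strand, with the antioxidant response element core in capitals (TGACNNNGC, which in the second window lies on the opposite strand).
TXNIP: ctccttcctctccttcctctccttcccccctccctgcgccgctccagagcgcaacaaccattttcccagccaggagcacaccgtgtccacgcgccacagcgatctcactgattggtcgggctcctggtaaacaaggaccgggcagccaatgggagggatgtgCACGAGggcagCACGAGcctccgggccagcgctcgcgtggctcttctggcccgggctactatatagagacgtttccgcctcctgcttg
TXNRD1, first start: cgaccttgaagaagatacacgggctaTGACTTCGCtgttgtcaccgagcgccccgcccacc
TXNRD1, second start: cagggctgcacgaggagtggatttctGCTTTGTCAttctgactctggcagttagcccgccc

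Counted from the TXNIP start, the CACGAG copies ran from base -88 to base -72 with 5 bases between them. Among 35116 promoter windows of 300 bases (250 before and 50 after a start), searched on both strands, 2 held such a pair, or 0.0057%. That spacing was searched for after the TXNIP sequence had been seen. The perfect E-box CACGTG was in 7.26% of the windows; PRDX3 and PRDX4 held 1 each, and TXNIP held none in the windows searched. The core TGACNNNGC ran from base -99 to -91 at the first TXNRD1 start and from -102 to -94 at the second, with another match on the opposite strand from -8 to 1 in the first window, outside the stretch printed. It was in 13.3% of all windows. The TATA box TATAAA was in 11.5% of the windows and, among the members, in that of TXN, while the NF-kB motif was in 58.7% and in windows of TXNIP, TXN, TXNRD1, PRDX3, PRDX4 and SOD2. Of the 10 genes, 7 had a promoter window, 12 windows in all. These matches describe the letters only.

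The silenced gene checked the labels. YAP1 (213342_at) lay between 4.68 and 6.21 in siYAP cells under erastin, against 8.47 to 8.65 in siNT cells under erastin, and between 4.18 and 4.88 in siYAP cells in DMSO, against 8.47 to 8.59 in siNT cells in DMSO. All values are log2 RMA signals. The value of 6.21 belonged to replicate 2 of the siYAP erastin arrays, so the member and related genes whose call in a comparison using that array was lost without it are given without it too, an alternative chosen for the related genes after their values had been seen. Replicate arrays correlated at 0.996 to 0.999 over all probe sets. Renal carcinoma and tubule markers averaged 10.51 to 10.80 per array (10 of 12 listed genes measured), with siYAP arrays at 10.79 to 10.80 and siNT arrays at 10.51 to 10.59. Immune markers averaged 4.23 to 4.51 (8 of 10 measured), endothelial markers 4.30 to 4.61 (5 of 5) and fibroblast markers 5.07 to 5.42 (6 of 6). The difference between the 3′ and 5′ control probe sets of ACTB, a sign of RNA integrity, was 3.35 to 3.71 log2 units on the siYAP erastin arrays, above the 1.49 to 3.14 of the siYAP DMSO arrays, the 1.49 to 2.82 of the siNT erastin arrays and the 2.40 to 2.97 of the siNT DMSO arrays. The same difference for GAPDH averaged 0.147 to 0.216 in all groups. Whether these differences had a part in the results below was not tested. In whole-culture RNA, fewer cells that express a gene and less RNA of it per cell cannot be told apart.

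TXNIP, the inhibitor of thioredoxin and an alpha-arrestin that also lowers glucose uptake, had the widest spread of group means among the highest-mean probe sets of the 9 genes with a symbol of their own, which leaves out SOD2/SOD2-OT1. On 2 of its 3 probe sets it was called higher with erastin in siNT cells, and with YAP silencing higher in DMSO and lower under erastin. On probe set 201010_s_at the siYAP erastin arrays read 10.74, 10.68 and 10.71, the siYAP DMSO arrays 10.73, 10.80 and 10.62, the siNT erastin arrays 10.81, 10.98 and 10.94, and the siNT DMSO arrays 10.47, 10.42 and 10.40. The siNT erastin arrays were thus the highest and the siNT DMSO arrays the lowest, neither overlapping another group, while both siYAP groups lay between them and overlapped. On 201009_s_at the siYAP erastin arrays read 9.40, 9.49 and 9.52, the siYAP DMSO arrays 9.60, 9.58 and 9.39, the siNT erastin arrays 9.68, 9.76 and 9.86, and the siNT DMSO arrays 9.25, 9.38 and 9.06. The order of the groups was the same. On the third probe set, 201008_s_at, the siYAP erastin arrays spanned 9.04 to 9.33, the siYAP DMSO arrays 8.99 to 9.20, the siNT erastin arrays 9.18 to 9.42 and the siNT DMSO arrays 8.70 to 9.03; among the pairs compared, only the siNT groups did not overlap.

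**Figure D1:**
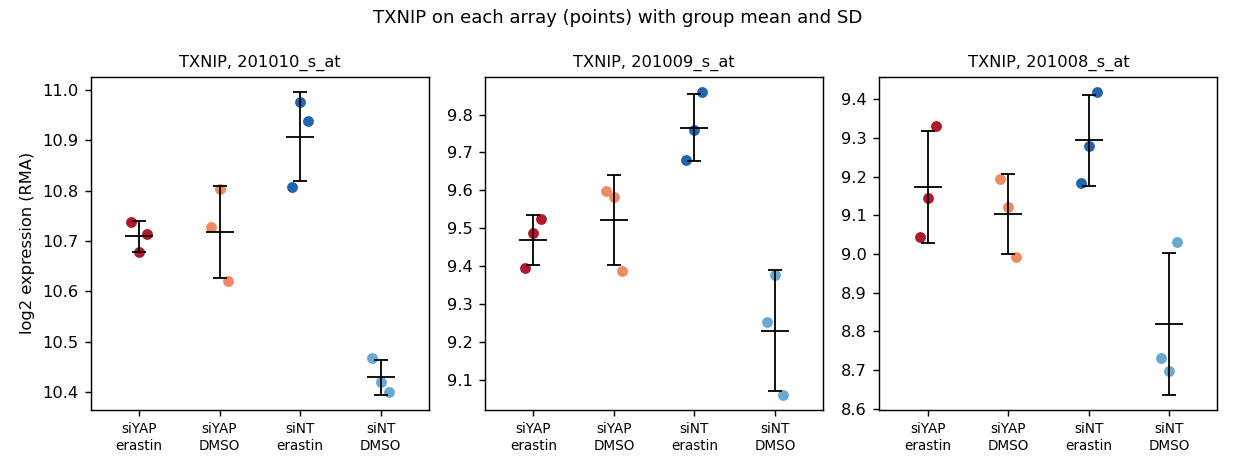
Log2 signal of the 3 TXNIP probe sets on each of the 12 arrays (vertical axis), by group (horizontal axis); points are arrays, and the black marks give group means with SD (n = 3). Each panel has its own scale. On 201010_s_at the siNT erastin arrays (10.81 to 10.98) sit above and the siNT DMSO arrays (10.40 to 10.47) below all siYAP arrays.

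With erastin, TXNIP in siNT cells was 1.39-fold higher on 201010_s_at (log2 change 0.48, SE 0.06; limma adjusted p = 0.00604) and 1.45-fold higher on 201009_s_at (0.54, SE 0.09; limma adjusted p = 0.0268). The change on 201008_s_at was 0.47 (SE 0.10; limma adjusted p = 0.103). In siYAP cells the changes were -0.01, -0.05 and 0.07 on the same probe sets, with 95% intervals of -0.15 to 0.13, -0.24 to 0.14 and -0.15 to 0.30. Averaged over its 3 probe sets, which correlated with one another at 0.718 to 0.914 over the 12 arrays, TXNIP changed by 0.50 in siNT cells (limma adjusted p = 0.00350) and by 0.00 in siYAP cells (limma adjusted p = 0.992). Leaving out 1 array ended the call of 201009_s_at in 6 cases: replicate 2 of siYAP erastin, any of the siNT erastin arrays, and replicates 1 and 3 of siNT DMSO (0.45 to 0.58, limma adjusted p = 0.0537 to 0.110). A fit to the 6 siNT arrays alone ended both calls, with limma adjusted p = 0.125 on 201010_s_at and 0.246 on 201009_s_at.

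YAP silencing in DMSO raised TXNIP 1.22-fold on both called probe sets, with log2 changes of 0.29 on 201010_s_at (SE 0.06; limma adjusted p = 0.00442) and 0.29 on 201009_s_at (SE 0.09; limma adjusted p = 0.0256). The change on 201008_s_at was 0.28 (limma adjusted p = 0.0627). Under erastin, silencing lowered TXNIP 1.15-fold on 201010_s_at (log2 change -0.20, SE 0.06; limma adjusted p = 0.0353) and 1.23-fold on 201009_s_at (-0.30, SE 0.09; limma adjusted p = 0.0226), with -0.12 on 201008_s_at (limma adjusted p = 0.463). The comparison in DMSO and the erastin comparison in siNT cells share the siNT DMSO arrays. The silencing comparison under erastin and the erastin comparison in siNT cells share the siNT erastin arrays. The 2 silencing comparisons share no array. Without replicate 2 of the siYAP erastin group, the array with the high YAP1 value, the change under erastin was -0.18 on 201010_s_at (limma adjusted p = 0.110) and -0.31 on 201009_s_at (limma adjusted p = 0.0511). Other single arrays also ended calls: on 201010_s_at under erastin replicates 1 and 3 of siYAP erastin and replicates 2 and 3 of siNT erastin (-0.16 to -0.21, limma adjusted p = 0.0631 to 0.116), on 201009_s_at under erastin replicate 1 of siYAP erastin and replicate 3 of siNT erastin (-0.25 to -0.26, limma adjusted p = 0.0746 to 0.0861), and on 201009_s_at in DMSO replicates 1 and 2 of siYAP DMSO and replicates 1 and 3 of siNT DMSO (0.21 to 0.30, limma adjusted p = 0.0558 to 0.104). In all, the call of 201010_s_at under erastin was lost in 9 of 21 alternative fits. These included the 6 arrays compared alone (limma adjusted p = 0.0701), quantile normalization (limma adjusted p = 0.0599) and array weights (limma adjusted p = 0.0723). A fit to the 6 DMSO arrays alone also ended the call of 201009_s_at in DMSO (limma adjusted p = 0.0518).

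TXNIP was the 1 gene with a symbol of its own that was called higher after silencing in DMSO and lower after silencing under erastin. In all, 4 probe sets had that pair of calls, the 2 of TXNIP and 2 with no single symbol, and 2 probe sets had the opposite pair. Counted without a test, siYAP arrays lay above every siNT array in DMSO and below every siNT array under erastin on 49 of 22215 probe sets (0.221%), among them 201010_s_at and 201009_s_at. The mirror order, below in DMSO and above under erastin, was found on 57 probe sets, so such an order alone does not set TXNIP apart. The test of the difference itself did not pass over all probe sets. The response to erastin in siYAP cells minus that in siNT cells was -0.49 on 201010_s_at (SE 0.09, 95% interval -0.68 to -0.29; limma adjusted p = 0.352), -0.59 on 201009_s_at (limma adjusted p = 0.399) and -0.40 on 201008_s_at (limma adjusted p = 0.517). By p these ranked 10, 24 and 741 among all probe sets. limma called 0 of 22215 probe sets (0%) in this interaction, with 2005 at an unadjusted p under 0.05, 3 of them among the 18 member probe sets. With trended and robust variances limma called 7 probe sets, 201010_s_at of TXNIP among them (adjusted p = 0.0389), and with array weights 3.

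Cytosolic thioredoxin, TXN, leaned higher after silencing on both of its probe sets, and neither was called. On 208864_s_at the siYAP erastin arrays read 12.35, 12.40 and 12.36, against 12.28, 12.08 and 12.14 on the siNT erastin arrays, which did not overlap (log2 change 0.20, 95% interval 0.04 to 0.36; limma adjusted p = 0.0560). In DMSO the siYAP arrays spanned 12.28 to 12.38 and the siNT arrays 12.07 to 12.31 (0.13, 95% interval -0.03 to 0.29; limma adjusted p = 0.227). The other probe set, 216609_at, changed by 0.18 under erastin and by 0.22 in DMSO without passing the test. Under erastin its siYAP arrays read 9.08, 8.99 and 9.09 and its siNT arrays 9.10, 9.01 and 8.51. The change there rested largely on the array at 8.51, and over the alternative fits it ran from -0.0006 to 0.30. Mitochondrial thioredoxin, TXN2, ran the other way on both of its probe sets. On 209077_at the siYAP erastin arrays read 9.80, 9.92 and 9.81, against 10.11, 10.05 and 10.05 on the siNT erastin arrays, a 1.17-fold lower level (log2 change -0.23, SE 0.07; limma adjusted p = 0.0217). The siYAP DMSO arrays lay at 9.81 to 9.89 and the siNT DMSO arrays at 9.91 to 10.15, again without overlap (-0.18; limma adjusted p = 0.0677). Its second probe set, 209078_s_at, gave -0.11 under erastin and -0.08 in DMSO, not called, and the call under erastin was lost without replicate 1 or 3 of siYAP erastin or replicate 1 of siNT erastin (-0.21 in each case; limma adjusted p = 0.0719 to 0.0791). Without replicate 2 of siYAP erastin the change was -0.27 (limma adjusted p = 0.0229).

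TXNRD1, the cytosolic reductase that recharges thioredoxin, rose with silencing in DMSO. The siYAP DMSO arrays read 11.70, 11.80 and 11.77 on 201266_at, against 11.57, 11.57 and 11.50 on the siNT DMSO arrays. Every siYAP array was above every siNT array, 1.16-fold on average (log2 change 0.21, SE 0.06; limma adjusted p = 0.0124), and the call held in all 21 alternative fits run for it. Under erastin the siYAP arrays spanned 11.69 to 11.76 and the siNT arrays 11.60 to 11.69, which overlapped (0.08, 95% interval -0.05 to 0.20; limma adjusted p = 0.378). Whether the changes in DMSO and under erastin differ was covered by the interaction, -0.13 (95% interval -0.30 to 0.04; limma adjusted p = 0.626). With erastin TXNRD1 changed by 0.09 in siNT cells (limma adjusted p = 0.705) and by -0.04 in siYAP cells (limma adjusted p = 0.847).

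**Figure D2:**
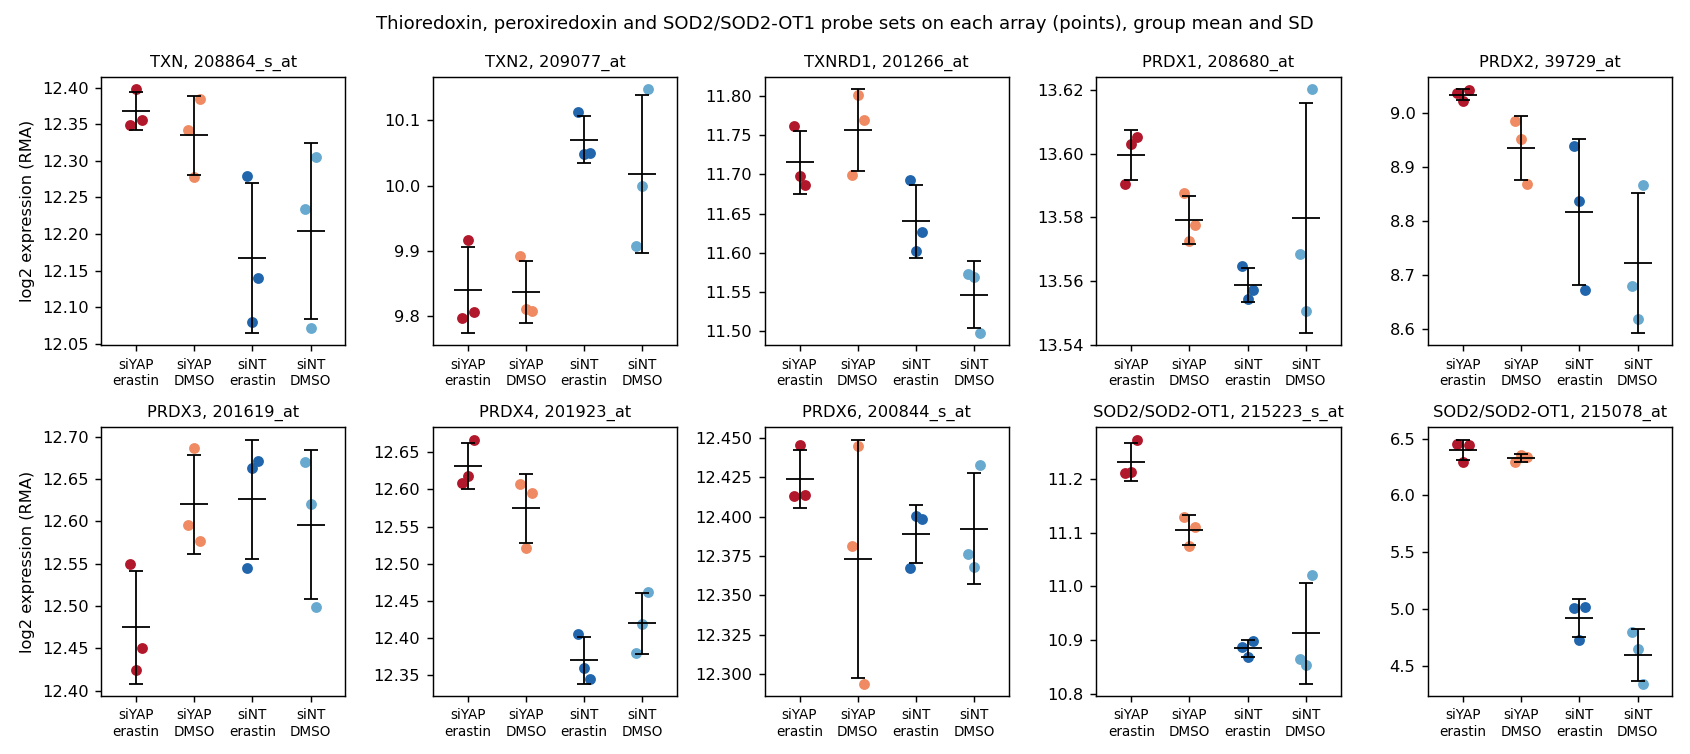
Log2 signal on each of the 12 arrays (vertical axes), by group (horizontal axes), for the highest-mean probe set of 8 member genes and for SOD2/SOD2-OT1 on 215223_s_at and 215078_at; points are arrays, the black marks group means with SD (n = 3), and each panel has its own scale. PRDX4 (12.61 to 12.67 in siYAP against 12.35 to 12.41 in siNT under erastin) separates the siRNA groups, while the PRDX1 arrays all lie between 13.55 and 13.62.

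Among the peroxiredoxins, PRDX4, the form that works in the endoplasmic reticulum and is secreted, rose with silencing. On 201923_at the siYAP erastin arrays read 12.61, 12.62 and 12.67, against 12.41, 12.36 and 12.35 on the siNT erastin arrays, a 1.20-fold higher level (log2 change 0.26, SE 0.05; limma adjusted p = 0.00226). The siYAP DMSO arrays read 12.61, 12.52 and 12.60, against 12.38, 12.42 and 12.46 on the siNT DMSO arrays (0.15, SE 0.05; limma adjusted p = 0.0467). Neither pair of groups overlapped. The call in DMSO stood near the threshold: it was lost without replicate 1 or 3 of siYAP DMSO, replicate 1 or 2 of siNT DMSO, any siYAP erastin array, or replicate 1 or 2 of siNT erastin (0.13 to 0.15, limma adjusted p = 0.0535 to 0.156). The call under erastin held under the same omissions.

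PRDX2, a cytosolic peroxiredoxin abundant in red cells, was measured by 4 probe sets and called on none. The one with the highest mean, 39729_at, read 9.04, 9.02 and 9.04 on the siYAP erastin arrays, against 8.94, 8.84 and 8.67 on the siNT erastin arrays (log2 change 0.22, 95% interval 0.04 to 0.39; limma adjusted p = 0.0597). In DMSO the siYAP arrays read 8.98, 8.95 and 8.87 and the siNT arrays 8.68, 8.62 and 8.87 (0.21, 95% interval 0.04 to 0.39; limma adjusted p = 0.0681). The groups did not overlap in either medium, although the lowest siYAP and highest siNT arrays in DMSO were 8.869 and 8.867. The other 3 probe sets changed by -0.09 to 0.03 under erastin and by -0.04 to 0.15 in DMSO, so the probe sets of the gene did not share a direction.

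PRDX1, the main cytosolic form, had the narrowest spread of group means among the highest-mean probe sets of those 9 genes. Its arrays read 13.59 to 13.61 in siYAP erastin, 13.57 to 13.59 in siYAP DMSO, 13.55 to 13.56 in siNT erastin and 13.55 to 13.62 in siNT DMSO. The siYAP and siNT arrays did not overlap under erastin, but the change was small and not called. It was 0.04 under erastin (95% interval -0.06 to 0.15) and 0.00 in DMSO (-0.11 to 0.10 on the log2 scale), and larger changes lay outside these intervals. PRDX3, the mitochondrial form, read 12.42 to 12.55 on the siYAP erastin arrays of 201619_at, against 12.55 to 12.67 on the siNT erastin arrays (log2 change -0.15; limma adjusted p = 0.115). In DMSO it read 12.58 to 12.69 in siYAP and 12.50 to 12.67 in siNT cells (0.02; limma adjusted p = 0.851). Its second probe set, 209766_at, was dim, with group means of 4.51 to 4.72. PRDX6, the form with a single catalytic cysteine that also acts as a phospholipase, changed by 0.04 and -0.03 under erastin and by -0.02 and 0.12 in DMSO on its 2 probe sets, none of it called.

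**Figure D3:**
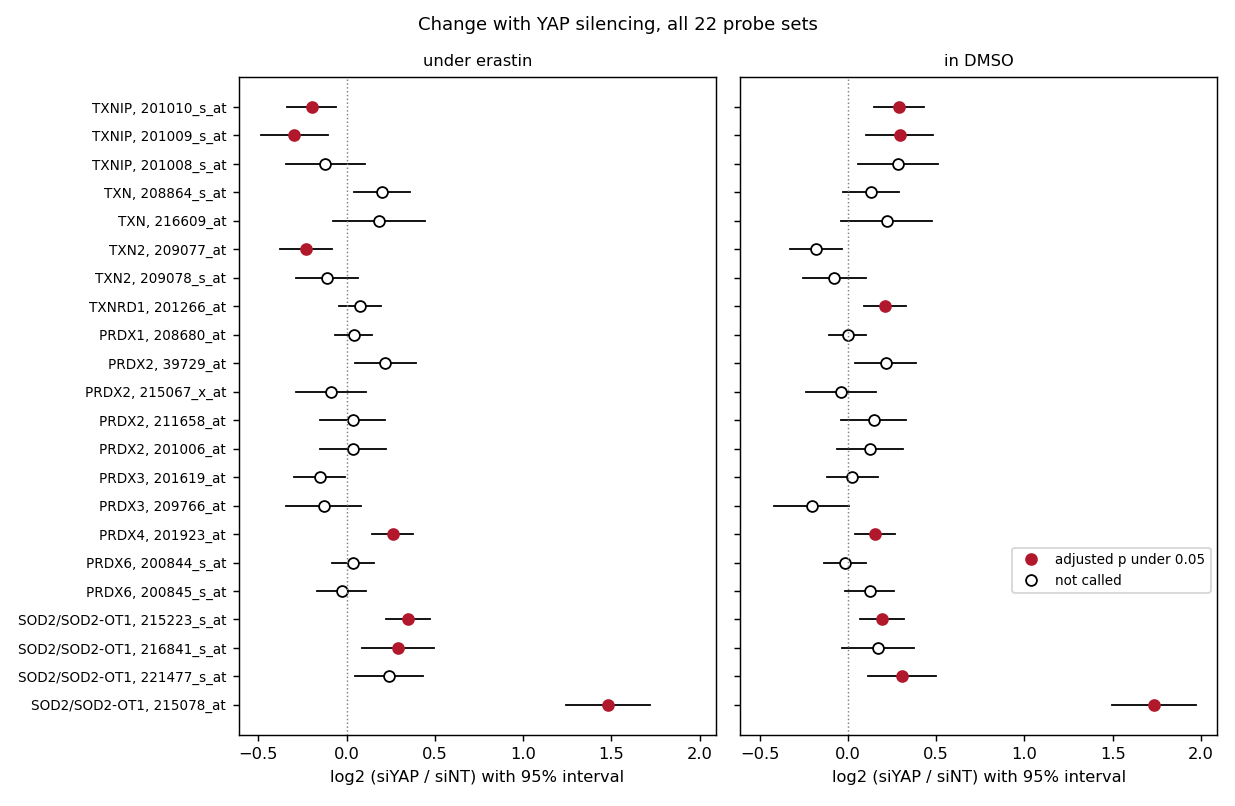
Log2 change with YAP silencing (siYAP over siNT, horizontal axis) of all 22 probe sets, under erastin in the left panel and in DMSO in the right; points are estimates, lines 95% intervals, and filled points have a limma adjusted p under 0.05. The 2 called TXNIP probe sets lie at -0.20 and -0.30 under erastin and at 0.29 in DMSO, and SOD2/SOD2-OT1 215078_at at 1.48 and 1.73.

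SOD2 is the mitochondrial superoxide dismutase, which turns superoxide into the hydrogen peroxide that PRDX3 removes. The 4 shared SOD2/SOD2-OT1 probe sets included the largest silencing change of the 22. Under erastin 3 of 4 were called higher, as were 16.0% of all probe sets, and in DMSO 3 of 4, as were 14.4%. None was called lower, against 12.9% of all probe sets in each medium. The 4 share their annotation and arrays and are not independent of one another. On 215078_at the siYAP erastin arrays read 6.46, 6.29 and 6.45, against 5.01, 4.73 and 5.02 on the siNT erastin arrays, a 2.79-fold higher level (log2 change 1.48, SE 0.11; limma adjusted p = 7.79e-07). The siYAP DMSO arrays read 6.29, 6.36 and 6.34, against 4.80, 4.65 and 4.34 on the siNT DMSO arrays, 3.32-fold higher (1.73, SE 0.11; limma adjusted p = 2.14e-07). The gap between groups was several times the spread within them on this probe set. It was dim, however, with siNT arrays at 4.34 to 5.02, against array medians of 6.49 to 6.52. The probe set with the highest mean, 215223_s_at, moved much less: it read 11.21, 11.21 and 11.27 on the siYAP erastin arrays, against 10.89, 10.87 and 10.90 on the siNT erastin arrays (0.35, SE 0.06; limma adjusted p = 0.000538). In DMSO it read 11.13, 11.08 and 11.11 in siYAP, against 10.86, 10.85 and 11.02 in siNT cells (0.19, SE 0.06; limma adjusted p = 0.0254). These groups did not overlap either. The log2 change of 216841_s_at was 0.29 under erastin (limma adjusted p = 0.0349) and 0.17 in DMSO (0.232), and that of 221477_s_at was 0.24 under erastin (limma adjusted p = 0.0605) and 0.30 in DMSO (0.0215). The probe sets therefore shared a direction and differed in size, and which transcript each detected was not tested. Leaving out single arrays ended the calls of 215223_s_at in DMSO (replicates 1 and 3 of siYAP DMSO, 1 and 2 of siNT DMSO), 221477_s_at in DMSO (replicates 1 and 2 of siYAP DMSO, 2 and 3 of siNT DMSO) and 216841_s_at under erastin (replicates 2 and 3 of siYAP erastin, 1 and 2 of siNT erastin), with limma adjusted p = 0.0615 to 0.153 (0.0618 for 216841_s_at without replicate 2 of siYAP erastin), but none of 215078_at or of 215223_s_at under erastin.

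Counted over the 18 probe sets with a single symbol, silencing called 1 higher (PRDX4) and 3 lower (TXNIP on 2, TXN2 on 1) under erastin, where 16.0% of all probe sets were called higher and 12.9% lower. In DMSO it called 4 higher (TXNIP on 2, TXNRD1, PRDX4) and 0 lower, where 14.4% of all probe sets were called higher and 12.9% lower. An unadjusted limma p under 0.05 was found for 7 of the 18 in each medium, and for 8237 of all 22215 under erastin and 7920 in DMSO. The calls fell on 3 of the 9 genes in either medium, each called on its highest-mean probe set. By that probe set, 19.0% of all 11963 genes were called higher and 14.0% lower under erastin. In DMSO 17.0% were called higher and 14.6% lower. No test was made of these shares. The median absolute log2 change of the members was 0.125 under erastin, against 0.128 over all probe sets, and 0.150 in DMSO, against 0.124 over all probe sets. Erastin called 0 of the 18 in siYAP cells (1 at an unadjusted limma p under 0.05, as were 2201 of all 22215), where 0.171% of all probe sets were called in either direction, and 2 of the 18 in siNT cells, both of TXNIP, where 0.297% were called. The median absolute change with erastin was 0.0548 for the members in siYAP cells, against 0.0719 for all probe sets, and 0.0525 for the members in siNT cells, against 0.0677 for all. None of the 4 SOD2/SOD2-OT1 probe sets was called with erastin; the largest change among them, on 215078_at in siNT cells, was 0.32 (limma adjusted p = 0.395).

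**Figure D4:**
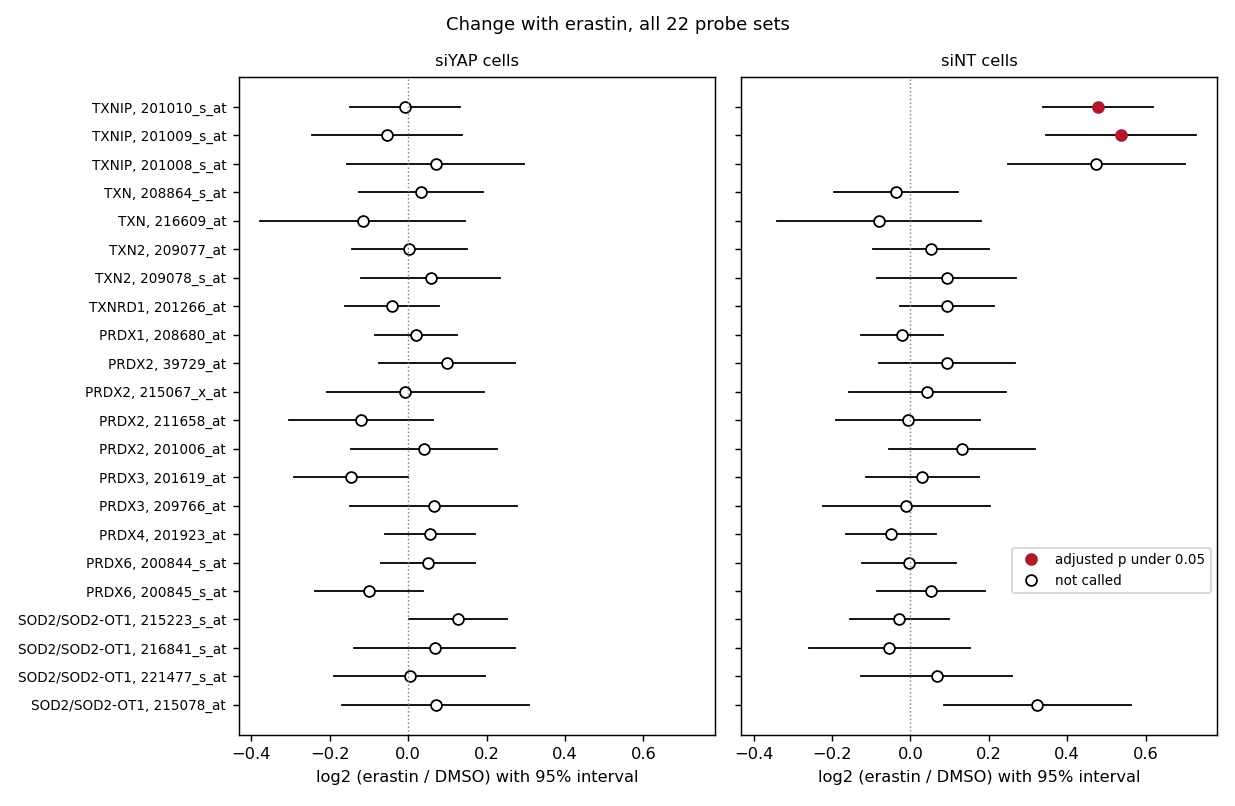
Log2 change with erastin (erastin over DMSO, horizontal axis) of all 22 probe sets, in siYAP cells in the left panel and in siNT cells in the right; points are estimates, lines 95% intervals, and filled points have a limma adjusted p under 0.05. In siNT cells the 3 TXNIP probe sets lie at 0.47 to 0.54, 2 of them called, and in siYAP cells no probe set was called.

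**Figure D5:**
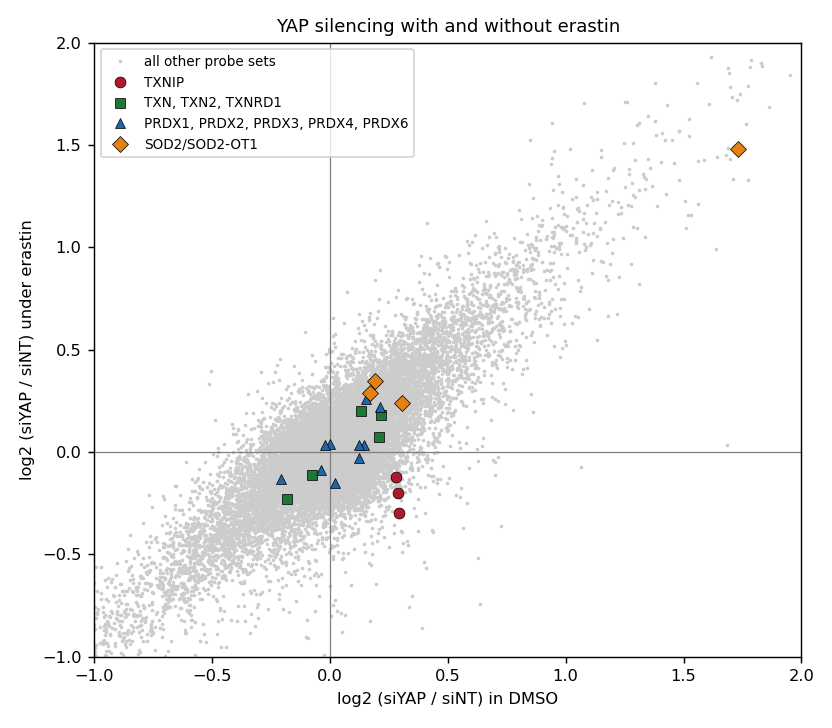
Log2 change with YAP silencing in DMSO (horizontal axis) against that under erastin (vertical axis) for every probe set, with the members coloured by role. The axes run from -1 to 2 and leave out 377 probe sets; the TXNIP points lie right of 0 and below 0, and the SOD2/SOD2-OT1 point of 215078_at lies at the upper right, farther out than any other member.

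The genes around the system were counted with 1 probe set a gene, the one with the highest mean. Over the 11963 genes so measured, silencing called 19.0% higher and 14.0% lower under erastin and 17.0% higher and 14.6% lower in DMSO, and erastin called 0.234% in siYAP cells and 0.435% in siNT cells. Of 10 reductases, recycling and repair enzymes, 4 rose and 0 fell under erastin, and 4 rose and 1 fell in DMSO. Their median log2 change was 0.11 under erastin, against 0.01 over all genes, and 0.13 in DMSO, against 0.02 over all genes. SESN1, a sestrin linked to peroxiredoxin repair and nutrient sensing, rose by 0.62 under erastin and by 0.72 in DMSO. GLRX, the cytosolic glutaredoxin, rose by 0.48 under erastin and by 0.35 in DMSO. MSRB2, a mitochondrial methionine sulfoxide reductase, rose by 0.43 under erastin and by 0.29 in DMSO. TXNRD2, the mitochondrial thioredoxin reductase, was not called (-0.05 under erastin and 0.17 in DMSO). Of 9 other peroxide and superoxide enzymes, 4 rose under erastin and 2 in DMSO, and 0 fell. GPX7, a peroxidase of the endoplasmic reticulum, rose by 1.24 under erastin (limma adjusted p = 1.38e-06) and by 0.86 in DMSO (limma adjusted p = 2.75e-05), where it averaged 7.11 ± 0.18 in siYAP and 6.25 ± 0.14 in siNT cells (SD, n = 3 each). CCS, the copper chaperone of SOD1, rose by 0.33 under erastin, and SOD1 itself by 0.16 (limma adjusted p = 0.0467). Neither was called in DMSO. GPX3, the secreted glutathione peroxidase, rose by 0.31 in DMSO and was not called under erastin (0.13, limma adjusted p = 0.405). Catalase, CAT, was not called (-0.05 under erastin and 0.06 in DMSO). PRDX5 and SRXN1 were not analysed here, having no probe set under their own symbol alone.

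Proteins with a thioredoxin fold moved in both directions. Of 13 measured, 3 rose and 5 fell under erastin, and 3 rose and 2 fell in DMSO. TMX1, a thioredoxin-like membrane protein of the endoplasmic reticulum, fell by 0.85 log2 units under erastin and by 0.81 in DMSO, TXNDC9 fell by 0.66 under erastin and by 0.48 in DMSO, and TXNDC15 rose by 0.57 under erastin and by 0.65 in DMSO. Of 6 clients of thioredoxin, 1 rose and 4 fell under erastin and 1 rose and 3 fell in DMSO. The ribonucleotide reductase subunits, which thioredoxin can reduce and whose levels follow cell division, were among those that fell: RRM2 averaged 9.58 ± 0.12 in siYAP and 10.88 ± 0.06 in siNT cells under erastin (log2 change -1.29), and 9.66 ± 0.10 in siYAP and 11.06 ± 0.01 in siNT cells in DMSO (-1.40; SD, n = 3 each). RRM1 fell by 0.70 under erastin and by 0.81 in DMSO. MAP3K5, the stress kinase that reduced thioredoxin holds inactive, rose by 0.56 under erastin (limma adjusted p = 0.00360), with 0.35 in DMSO (limma adjusted p = 0.0520).

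Of 8 measured regulators of TXNIP and alpha-arrestins, 2 rose and 2 fell with silencing in either medium. MLX, the obligate partner of the glucose-sensing factors that drive TXNIP, rose by 0.25 under erastin and by 0.24 in DMSO. MLXIP, the glucose-sensing factor MondoA itself, was not called with silencing (-0.02 under erastin and 0.10 in DMSO) or with erastin (-0.19 in siYAP and -0.06 in siNT cells). NEDD4L, a ubiquitin ligase, rose by 0.24 under erastin and by 0.38 in DMSO. SLC2A1, the glucose transporter that TXNIP helps to remove from the membrane, fell by 0.38 under erastin and by 0.47 in DMSO. DDIT4, a stress gene whose protein can bind TXNIP, was the 1 gene of this list called with erastin, by 1.15 in siYAP cells and by 1.52 in siNT cells; it fell with silencing by 1.17 under erastin and by 0.80 in DMSO. Erastin thus raised DDIT4 whether or not YAP was silenced, while TXNIP was called with erastin in siNT cells alone; the interaction passed for neither (limma adjusted p = 0.444 for DDIT4). Of 14 NADPH-supplying enzymes, 2 rose and 3 fell under erastin and 2 rose and 4 fell in DMSO. MTHFD2, a mitochondrial folate enzyme, rose with erastin by 0.86 in siYAP and 0.54 in siNT cells and fell with silencing by 0.62 under erastin and 0.94 in DMSO. TKT, transketolase, fell by 0.52 under erastin and by 0.31 in DMSO. NADK, which makes NADP from NAD, rose by 0.39 under erastin and by 0.22 in DMSO. Without replicate 2 of siYAP erastin, 5 of these related genes were no longer called for silencing under erastin: TXNL1 (log2 change 0.16, limma adjusted p = 0.0689), TMX2 (-0.18, limma adjusted p = 0.0857), SOD1 (0.15, limma adjusted p = 0.132), NEDD4L (0.27, limma adjusted p = 0.0502) and ME2 (0.18, limma adjusted p = 0.0801). The count called higher was then 1 for the regulators of TXNIP and alpha-arrestins and 1 for the NADPH-supplying enzymes. It was 3 for the other peroxide and superoxide enzymes and 2 for the proteins with a thioredoxin fold, of which 4 were called lower. None of the related genes gained a call in that comparison, and with erastin in siYAP cells none gained or lost one.

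For the 3 genes with the widest spread of group means, by the highest-mean probe set of each of the 9 genes and with SOD2/SOD2-OT1 left out, the 4 genes with the most similar pattern over the 12 arrays were found, as a description. The group means of TXNIP spanned 0.478 log2 units, those of PRDX2 0.312 and those of PRDX4 0.261; at the other end PRDX1 spanned 0.0409 and PRDX6 0.0509. Nearest to TXNIP were GDF15 (Pearson r = 0.908 over 12 arrays), CDH22 (0.902), NBR1 (0.900) and CALCOCO1 (0.884). GDF15, a stress-induced secreted factor, changed by 0.69 with erastin in siNT cells and by -0.05 in siYAP cells. With silencing it changed by -0.18 under erastin and by 0.56 in DMSO. It was picked for its likeness to TXNIP on 201010_s_at, so shared directions are no separate result. NBR1 and CALCOCO1, both autophagy receptors, changed by 0.33 and 0.31 with erastin in siNT cells. Nearest to PRDX2 were HCFC1R1, NDUFA2, CST3 and KCTD17 (r = 0.955 to 0.961 over 12 arrays), and nearest to PRDX4 were DYNLT1, CERT1, UBB and COX7C (r = 0.984 to 0.986 over 12 arrays). All 8 of these were higher in siYAP than in siNT cells in both media, by 0.13 to 0.66 under erastin and by 0.10 to 0.48 in DMSO. This direction largely follows from their choice by likeness to PRDX2 or PRDX4. The 12 points fall into 4 groups and share their arrays, so such correlations chiefly follow the differences between groups.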

How the data were processed

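The deposited log2 values come from RMA in Affymetrix Expression Console, run by the authors according to the submitters' processing notes. The version of neither tool is given there, nor the array type or a scanning date, and batches could therefore not be examined. RMA makes signal distributions nearly equal between arrays (medians 6.49 to 6.52), so changes in total RNA are not seen and differences between dim signals are compressed. The titles gave each array's group and replicate number. Of 22277 probe sets, 62 array controls were set aside. GEO's platform annotation gave 1 symbol to 19065 of the rest, several to 1043 and none to 2107.

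A linear model (1 mean a group, 12 arrays, 22215 probe sets) was fitted with limma 3.58.1 in R 4.3.3 (8 residual degrees of freedom). It was also run on simulated data with independent noise in each probe set, without the deviations that probe sets of an array share. That run had to recover only planted changes larger than most member changes here, so it does not bear on the member calls. p-values were adjusted by Benjamini-Hochberg within each of 5 comparisons over all probe sets, and a call means an adjusted p under 0.05. Intervals are 95% and the number of arrays, 3 a group, limits the precision. Named genes were all member probe sets, YAP1, up to 3 called genes with the largest change in each related list plus a few listed partners, and the 4 most similar genes of 3 members. The members and lists were chosen with earlier results of these data known. Alternatives changed the normalization, the dim-probe filter, the variance model, the array weights, the arrays fitted, the unit of test, the size of change and the replicate block, and left out each array in turn. Motifs were searched on both strands of RefSeq promoter windows (GRCh38.p14). Same-numbered arrays of different groups showed little deviation in the same direction (correlation over 0.1 in 2 of 12 pairs). The correlations ran from -0.425 to 0.167. All were negative for erastin against DMSO in siNT cells (-0.125, -0.258 and -0.425), the reason for which was not tested.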

Additional observations from a re-analysis of the deposited data

Results flagged for a closer look

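The silencing change of TXNIP was called in opposite directions in the 2 media on 2 of its 3 probe sets. On the third, 201008_s_at, the estimates also differed in sign (0.28 in DMSO and -0.12 under erastin), and neither was called. On 201010_s_at every siYAP array lay below every siNT array under erastin and above every siNT array in DMSO, and the change under erastin minus that in DMSO was -0.486 (SE 0.09; limma adjusted p = 0.352). On 201009_s_at the arrays were ordered in the same way and the difference was -0.589 (SE 0.12; limma adjusted p = 0.399). Neither difference passed the test over all probe sets, and no explanation was tested. Both probe sets measure 1 gene on the same arrays and are not independent of each other.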

How the results depend on the processing

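Over 110 results for single member probe sets and 2153 alternative values, 1968 kept their direction and side of the threshold, 90 changed sign without being called before or after, 56 were no longer called, 39 became called and 0 called values reversed; the causes were not tested. Centring the arrays shifted the mean change over all probe sets by at most 0.0204. Member counts from here on leave out SOD2/SOD2-OT1 and cover the 18 probe sets, or 9 genes, with a single symbol. Leaving out 1 array gave 5097 to 6471 calls for silencing under erastin (members 1 to 6), 5080 to 6588 in DMSO (members 2 to 6), 19 to 49 for erastin in siYAP cells (members 0), 34 to 50 in siNT cells (members 1 to 2) and 0 to 1 for the interaction. The 6 arrays of siNT alone gave 10 calls with erastin and 0 among members. Same-numbered arrays showed little deviation in the same direction. With the replicate block 33 probe sets and 1 member were called with erastin in siNT cells, and 3 member calls were lost: TXNIP 201010_s_at for silencing under erastin (limma adjusted p = 0.0564), TXNIP 201009_s_at for erastin in siNT cells (0.0717) and PRDX4 201923_at for silencing in DMSO (0.0737). Without the dimmest 30% of probe sets, 7 members were called in DMSO, among 6328 probe sets in all, and 124 probe sets with erastin in siNT cells. This filter also removed PRDX3 209766_at and left fewer probe sets tested. Its counts are therefore not out of the 18 members or the 22215 probe sets of the main fit. With 1 probe set per gene, silencing called 4173 under erastin and 4030 in DMSO, and erastin called 1 member in siNT cells; with gene means these were 3986 (2 members), 3896 and 1, where fewer features were tested. Trended and robust variances called 7 members for silencing under erastin, among 6836 probe sets in all, and 7 in DMSO, among 6505. They called 88 probe sets with erastin in siYAP cells, 170 in siNT cells, and 7 in the interaction with 1 member. Array weights called 7 members for silencing in DMSO, among 7300 probe sets in all, 70 probe sets with erastin in siYAP cells, 186 in siNT cells and 3 in the interaction. A 2-fold minimum left 495 probe sets for silencing under erastin, 495 in DMSO, 10 with erastin in siYAP cells and 5 in siNT cells. It left 0 of those members in each comparison. SOD2/SOD2-OT1 215078_at, counted apart, passed it for silencing, with log2 changes of 1.48 under erastin and 1.73 in DMSO. The zero transformation of the study's design, with all 3 arrays beyond 1 log2 unit, left 341 under erastin, 388 in DMSO, 10 with erastin in siYAP cells and 4 in siNT cells. Again 0 of those members were left. For silencing, 215078_at passed it in both media. Its siYAP arrays read 6.29 to 6.46 under erastin, against a siNT mean of 4.92, and 6.29 to 6.36 in DMSO, against 4.60. The median standard error of a change was 0.0845 log2 units, which limits what these arrays could detect.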
